A study of Homo sapiens with 12 samples.

Results

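The genes described here prepare DNA replication origins and switch them on. They are CDC6, CDT1, CDC45, GINS1, GINS2, GINS3, GINS4, CDC7, DBF4 and TICRR, chosen by name for their role in origin licensing and firing, and they make up 10 of the 60612 named genes in the count table. The choice was made with earlier results of these data known. All 10 passed the filter on low counts and were among the 11803 genes tested. Their transcripts were counted from 3′ end libraries of CAMA-1 cells, a human line established from an oestrogen receptor (ER)-positive breast cancer and labelled wild-type. One group received the vehicle DMSO, another abemaciclib, an inhibitor of the cell cycle kinases CDK4 and CDK6, at 100 nM, another fulvestrant, a drug that degrades ER, at 5 nM, and the last received abemaciclib together with fulvestrant. The doses used in the combination are not restated in the labels, which also give no treatment time. Each group held 3 libraries labelled as biological replicates of this single cell line.

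Before S phase, the origin recognition complex and CDC6 sit on DNA and, with CDT1, load the MCM helicase ring in an inactive form, a step called licensing. In S phase the kinase CDC7, bound to its activating subunit DBF4, phosphorylates MCM, and TICRR (also called treslin), itself a substrate of cyclin-dependent kinases, works with TOPBP1 and MTBP to bring in CDC45. CDC45 and the GINS complex, built from the products of GINS1, GINS2, GINS3 and GINS4, then join the ring to form the active helicase. Many of these genes are transcribed under E2F factors, which the retinoblastoma protein restrains when CDK4 and CDK6 are inactive.

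Library totals lay between 3299119 and 5164667 counts, and each of the 12 libraries correlated best across genes with a library of its own treatment. Libraries given fulvestrant agreed least with each other, with r = 0.970 between replicates 2 and 3, against a highest r of 0.971 and 0.976 between these libraries and other groups. Levels are normalised read counts in CPM, each gene's share of its library after scaling by the trimmed mean of M values (TMM) method. All 7 luminal epithelial markers examined, ESR1, GATA3, FOXA1, KRT8, KRT18, KRT19 and EPCAM, passed the filter, and their summed level was 5556 to 7653 CPM. Of the stromal markers 1 of 4 was tested and 3 had no read in any library, with a summed level of 14.2 to 25.9 CPM. The tested one, the collagen gene COL1A1, was higher than in DMSO with abemaciclib and with fulvestrant, by 0.45 and 0.48 on the log2 scale (adjusted p = 0.031 and 0.019), and had an interaction of -0.69 (adjusted p = 0.035), and its part in the results below was not tested. No immune, endothelial or basal marker was tested and their sums stayed at or below 0.481, 0.846 and 1.14 CPM. MKI67, a gene of proliferating cells, averaged 511 ± 52.4 CPM in DMSO, 54.2 ± 4.74 with abemaciclib, 43.7 ± 2.29 with fulvestrant and 2.21 ± 0.404 in the combination (mean ± SD, n = 3). It fell in each treated group against DMSO, as the genes below did, and its part in those falls was not tested. The share of reads from mitochondrial genes, 12.0 to 12.5% in the DMSO libraries and 15.6 to 20.6% in the treated libraries, also moved with treatment, and with mitochondrial genes left out the same number of the 10 genes was called in each comparison below. GREB1, a target of ER, averaged 81.1 ± 4.43, 127 ± 4.57, 4.62 ± 0.775 and 7.68 ± 1.05 CPM in the order given for MKI67, and so was low in both groups labelled as given fulvestrant. In bulk RNA, fewer replicating cells and less transcript per cell cannot be told apart.

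In GENCODE v44 on GRCh38 the gene spans are CDC6 at chr17:40287879-40304657, CDT1 at chr16:88803789-88809258, CDC45 at chr22:19479457-19520612, GINS1 at chr20:25391008-25452700, GINS2 at chr16:85676198-85690073, GINS3 at chr16:58295080-58406147, CDC7 at chr1:91500851-91525764, DBF4 at chr7:87876216-87909553 and TICRR at chr15:89575469-89631056, all on the plus strand except GINS2.

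Promoter sequence is shown first, since many genes of this pathway are known targets of factors that bind there. RefSeq windows on GRCh38.p14, the same build as the hg38 alignment of the authors, were used for 9 of the 10 genes, without GINS4. For each gene the first listed window was taken. Both strands were searched for E2F-type heptamers (spelled TTCCCGC, or else TTCGCGC, or else TTGCCGC, or else TTGGCGC), for the CHR element of genes expressed in G2 and mitosis (spelled TTTGAA or else TTCGAA) and for the CCAAT box. No match overlapped another. Capitals below mark the matches, and each sequence runs 5′ to 3′ on the strand of the gene from position -170 to position 30 around the annotated start. CDC6 and CDT1 are shown for licensing, CDC45, CDC7 and TICRR for the genes with the fewest reads under both drugs, GINS2 for the GINS gene that fell furthest, and GINS1, GINS3 and DBF4 for the genes whose response to abemaciclib differed in the presence of fulvestrant.
CDC6, chr17:40287709-40287908, plus strand: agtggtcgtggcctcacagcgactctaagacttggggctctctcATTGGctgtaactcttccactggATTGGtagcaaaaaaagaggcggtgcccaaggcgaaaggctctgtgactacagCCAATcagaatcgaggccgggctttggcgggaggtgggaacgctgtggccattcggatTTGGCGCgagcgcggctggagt
CDT1, chr16:88803619-88803818, plus strand: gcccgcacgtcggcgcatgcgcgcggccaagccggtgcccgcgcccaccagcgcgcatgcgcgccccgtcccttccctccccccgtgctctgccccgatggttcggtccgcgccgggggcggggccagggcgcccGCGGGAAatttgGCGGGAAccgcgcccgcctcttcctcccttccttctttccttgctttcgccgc
CDC45, chr22:19479750-19479949, plus strand: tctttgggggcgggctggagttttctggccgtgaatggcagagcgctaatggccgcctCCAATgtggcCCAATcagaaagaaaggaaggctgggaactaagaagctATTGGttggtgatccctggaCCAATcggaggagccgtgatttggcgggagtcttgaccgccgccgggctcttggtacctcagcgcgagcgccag
CDC7, chr1:91500681-91500880, plus strand: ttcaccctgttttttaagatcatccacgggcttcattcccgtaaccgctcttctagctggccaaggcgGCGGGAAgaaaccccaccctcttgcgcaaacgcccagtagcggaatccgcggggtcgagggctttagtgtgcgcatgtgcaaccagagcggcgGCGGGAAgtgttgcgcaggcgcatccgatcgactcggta
TICRR, chr15:89575299-89575498, plus strand: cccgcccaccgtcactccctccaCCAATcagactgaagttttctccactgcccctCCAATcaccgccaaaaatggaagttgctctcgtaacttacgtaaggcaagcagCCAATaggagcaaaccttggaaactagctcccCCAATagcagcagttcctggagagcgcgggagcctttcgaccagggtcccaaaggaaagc
GINS2, chr16:85688925-85689124, minus strand: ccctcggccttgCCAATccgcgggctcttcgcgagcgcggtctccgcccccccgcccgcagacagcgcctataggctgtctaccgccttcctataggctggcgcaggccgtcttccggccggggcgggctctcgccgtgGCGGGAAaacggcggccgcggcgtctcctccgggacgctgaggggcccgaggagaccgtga
GINS1, chr20:25407503-25407702, plus strand: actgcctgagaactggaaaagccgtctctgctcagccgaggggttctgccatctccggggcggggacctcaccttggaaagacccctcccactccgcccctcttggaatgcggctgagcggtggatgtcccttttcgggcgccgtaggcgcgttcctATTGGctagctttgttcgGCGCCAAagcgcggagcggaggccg
GINS3, chr16:58392301-58392500, plus strand: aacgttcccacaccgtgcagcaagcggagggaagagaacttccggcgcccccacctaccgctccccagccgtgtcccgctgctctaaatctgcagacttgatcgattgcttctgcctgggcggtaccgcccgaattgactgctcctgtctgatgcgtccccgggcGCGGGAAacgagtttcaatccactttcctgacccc
DBF4, chr7:87876323-87876522, plus strand: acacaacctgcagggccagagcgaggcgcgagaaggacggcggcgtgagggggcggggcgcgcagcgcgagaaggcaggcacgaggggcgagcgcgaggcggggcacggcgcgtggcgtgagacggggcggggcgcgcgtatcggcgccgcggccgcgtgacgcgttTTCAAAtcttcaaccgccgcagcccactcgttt

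An E2F-type heptamer was found in 6 of the 9 windows, with 1 match each in CDC6, GINS1, GINS2 and GINS3 and 2 each in CDT1 and CDC7. Of 27305 RefSeq promoter windows of the same length, the first listed for each gene name, 13.1% held one. A CCAAT box was found in 5 of the 9, with 3 matches in CDC6, 4 in CDC45, 1 in GINS1, 1 in GINS2 and 5 in TICRR, of which 4 fall in the stretch shown, and 35.7% of all windows held at least 1. Other listed windows of CDC45 held 0 and 3 CCAAT boxes, and the other listed window of TICRR held 3. The CHR letters occurred only in the DBF4 window among the 9, against 16.6% of all windows. CDC6, GINS1 and GINS2 carried both an E2F heptamer and a CCAAT box, as did 4.69% of all windows. A match is a description of letters and not a bound site, and a window without a match says only that these exact letters are not in it.

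**Figure D1:**
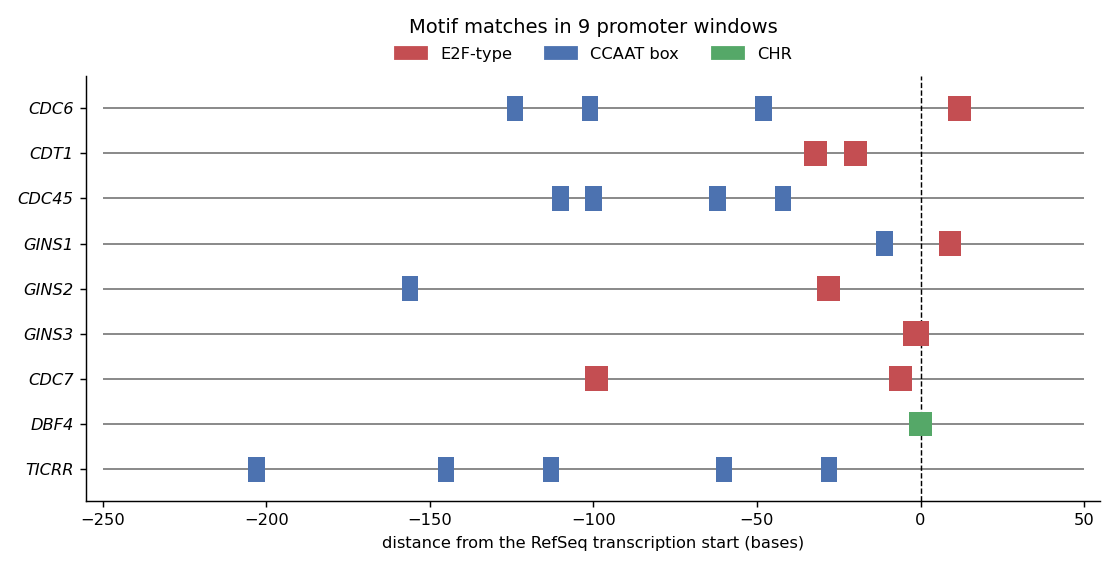
Motif matches in the first listed promoter windows of 9 genes, plotted by distance in bases from the RefSeq transcription start (dashed line). Red boxes mark E2F-type heptamers, blue boxes CCAAT boxes and green boxes the CHR element. By the exact letters searched, CDC45 and TICRR had only CCAAT matches, 4 and 5 of them, and DBF4 only a CHR match. Other spellings of these elements were not searched.

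The first question was how far each drug, alone and together, lowered these transcripts. Summed over the 10 genes, the level was 496 to 547 CPM in the DMSO libraries, 155 to 164 with abemaciclib, 66.8 to 72.9 with fulvestrant and 42.6 to 44.5 in the combination. The groups stood in that order with no overlap, and their means were 30.9%, 13.3% and 8.39% of the DMSO mean. All 10 genes fell with abemaciclib against DMSO (adjusted p under 0.05, quasi-likelihood test in edgeR with Benjamini-Hochberg adjustment), where 20.7% of the genes tested fell, and all 10 fell at least 2-fold, as 5.56% of the genes tested did. All 10 also fell with fulvestrant, against 25.7% of the genes tested, and again at least 2-fold, against 9.48%. In the combination all 10 fell against DMSO, where 27.5% of the genes tested fell and 10.8% fell at least 2-fold. Among the 10, CDC7 passed the filter on low counts through DMSO alone, so its place in these counts is not independent of the filter. The median log2 fold change of the 10 was -1.72, -3.20 and -4.78 in the 3 comparisons, while that of all genes tested was 0.00, 0.01 and 0.01. An exact two-sided permutation test of 3 libraries against 3 cannot give a p below 0.1, so each test rests on the model across all genes.

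**Figure D2:**
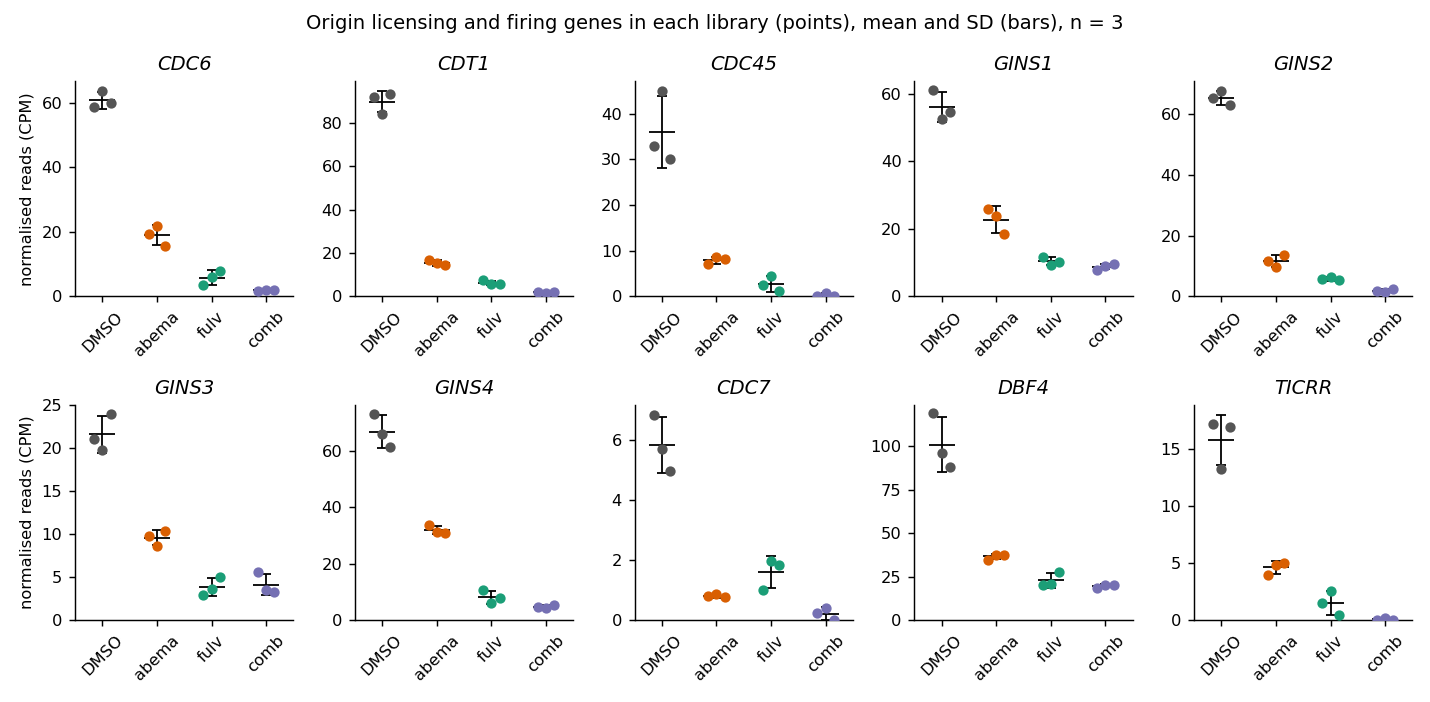
Level of each gene in every library as normalised reads (CPM, linear axes from 0), with abema for abemaciclib, fulv for fulvestrant and comb for both drugs; points are libraries, and bars the mean and SD of 3. Every DMSO library lies above every treated library in all 10 panels, and fulvestrant and combination libraries overlap only for GINS1, GINS3 and DBF4. The share of all genes tested whose libraries separate in this way was not counted.

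The licensing genes fell in steps. CDC6, the ATPase that joins the origin recognition complex to load MCM, stood at 58.8, 63.7 and 59.9 CPM in DMSO, 19.4, 21.9 and 15.7 with abemaciclib, 3.46, 5.92 and 7.98 with fulvestrant and 1.68, 2.07 and 1.94 in the combination. The 4 groups did not overlap, and the combination retained 3.12% ± 0.322 of the DMSO mean. Its log2 fold change against DMSO was -1.67 ± 0.15 (SE) with abemaciclib (adjusted p = 9.2e-10), -3.38 ± 0.19 with fulvestrant (adjusted p = 1.9e-14) and -4.98 ± 0.22 in the combination (adjusted p = 8.6e-17). CDT1, which escorts MCM to the origin, stood at 92.0, 84.4 and 93.4 CPM in DMSO, 17.0, 15.2 and 14.4 with abemaciclib, 7.41, 5.92 and 5.70 with fulvestrant and 1.92, 1.65 and 1.94 in the combination. Here too the 4 groups did not overlap, and the combination libraries held 8, 8 and 10 reads. The fall of CDT1 was -2.52 ± 0.13 with abemaciclib (adjusted p = 5.8e-15), -3.82 ± 0.15 with fulvestrant (adjusted p = 1.2e-17) and -5.59 ± 0.18 in the combination (adjusted p = 5.4e-20), all log2 fold changes. Against either single drug the combination was lower for both genes, by -3.301 ± 0.25 and -3.07 ± 0.22 on the log2 scale against abemaciclib for CDC6 and CDT1 (adjusted p = 4.7e-11 and 1.3e-11) and by -1.60 ± 0.32 and -1.77 ± 0.27 against fulvestrant (adjusted p = 0.0036 and 8.0e-05). CDC6 missed the threshold against fulvestrant when only those 2 groups were fitted (adjusted p = 0.061).

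CDT1 was also read against GMNN, which encodes geminin, the protein that binds CDT1 and blocks relicensing. There were 1.197 to 1.33 CDT1 reads per GMNN read in the DMSO libraries and 1.06 to 1.29 with abemaciclib. The ratio was 0.581 to 0.656 with fulvestrant and 0.205 to 0.370 in the combination. DMSO and abemaciclib overlapped, the fulvestrant libraries lay below both, and the combination libraries lay below all others. GMNN itself averaged 71.7 ± 4.72 CPM in DMSO, 13.4 ± 0.873 with abemaciclib, 10.1 ± 1.33 with fulvestrant and 6.84 ± 1.45 in the combination. Its log2 fold changes against DMSO were -2.41, -2.81 and -3.39 in the same order. No test was run on the ratio, which compares reads of a pair of genes within a library and so does not depend on library size.

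CDC45, the helicase subunit recruited at firing, came close to vanishing under both drugs. Its reads were 111, 236 and 145 in DMSO (32.9, 44.9 and 30.0 CPM), 35, 39 and 32 with abemaciclib (7.00, 8.61 and 8.09 CPM), 10, 16 and 5 with fulvestrant (2.47, 4.51 and 1.14 CPM) and 0, 4 and 0 in the combination. All 4 reads of the combination came from replicate 2, and its groups did not overlap. CDC45 changed by -2.19 ± 0.26 on the log2 scale with abemaciclib (adjusted p = 8.8e-07) and by -3.78 ± 0.32 with fulvestrant (adjusted p = 4.3e-09). From pooled reads the combination was 129-fold lower than DMSO (95% counting interval 50.1 to 476), 27.8-fold lower than abemaciclib (10.54 to 104) and 9.15-fold lower than fulvestrant (3.23 to 35.7). Such intervals cover counting error in pooled reads and not the spread between libraries, and the labels name no molecular identifiers. The adjusted p was 7.0e-11 against DMSO, 3.4e-06 against abemaciclib and 0.042 against fulvestrant.

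The 4 GINS genes did not fall equally. GINS2 stood at 65.3, 67.5 and 62.8 CPM in DMSO, 11.6, 9.71 and 13.6 with abemaciclib, 5.68, 6.49 and 5.24 with fulvestrant and 1.92, 1.45 and 2.33 in the combination with no overlap between groups. Its log2 fold change against DMSO was -2.49 ± 0.14 with abemaciclib, -3.49 ± 0.17 with fulvestrant and -5.07 ± 0.19 in the combination (adjusted p = 1.4e-13, 7.0e-16 and 3.4e-18). GINS4 stood at 73.0, 65.9 and 61.4 CPM in DMSO, 33.6, 31.3 and 30.8 with abemaciclib, 10.6, 5.92 and 7.75 with fulvestrant and 4.57, 4.14 and 5.44 in the combination. The groups again kept apart, with the smallest gap between the lowest fulvestrant and the highest combination library. GINS4 changed by -1.06 ± 0.13 with abemaciclib, -3.02 ± 0.16 with fulvestrant and -3.81 ± 0.17 in the combination on the log2 scale (adjusted p = 2.1e-07, 8.2e-15 and 1.2e-16).

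GINS1 and GINS3 fell less under the combination. GINS1 stood at 61.1, 52.5 and 54.6 CPM in DMSO, 26.01, 23.8 and 18.4 with abemaciclib, 11.6, 9.31 and 10.3 with fulvestrant and 7.94, 8.89 and 9.51 in the combination. The fulvestrant and combination libraries overlapped, and both lay below abemaciclib. Its log2 fold change against DMSO was -1.28 ± 0.14, -2.42 ± 0.16 and -2.66 ± 0.15 (adjusted p = 1.5e-08, 3.65e-13 and 3.2e-14). GINS3 stood at 21.1, 19.8 and 23.98 CPM in DMSO, 9.80, 8.61 and 10.4 with abemaciclib, 2.96, 3.67 and 5.01 with fulvestrant and 5.53, 3.52 and 3.301 in the combination. Its highest combination library, replicate 1, exceeded every fulvestrant library, while the other two lay within the fulvestrant range. GINS3 changed by -1.17 ± 0.20, -2.46 ± 0.23 and -2.41 ± 0.22 on the log2 scale (adjusted p = 2.4e-05, 1.0e-09 and 5.7e-10).

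Because the 4 proteins are known to assemble in equal number, their transcripts were also read as shares of the summed GINS reads of each library. GINS2 made up 29.6 to 32.8% in DMSO, 13.2 to 18.6% with abemaciclib, 18.4 to 25.6% with fulvestrant and 8.05 to 11.3% in the combination. GINS1 made up 25.5 to 27.7% in DMSO and 39.8 to 49.4% in the combination, and GINS3 9.56 to 11.8% and 16.04 to 27.7%. GINS4 rose above its DMSO share of 30.3 to 33.1% in the abemaciclib libraries, at 41.5 to 42.6%, and lay below it in the combination, at 22.9 to 26.4%. The GINS2 share of every treated library lay below that of every DMSO library, and the GINS1 share of every combination library lay above that of every DMSO library. The combination libraries held 83 to 106 GINS reads each and the DMSO libraries 743 to 1082, so the shares are less precise in the combination, and they were not tested.

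**Figure D3:**
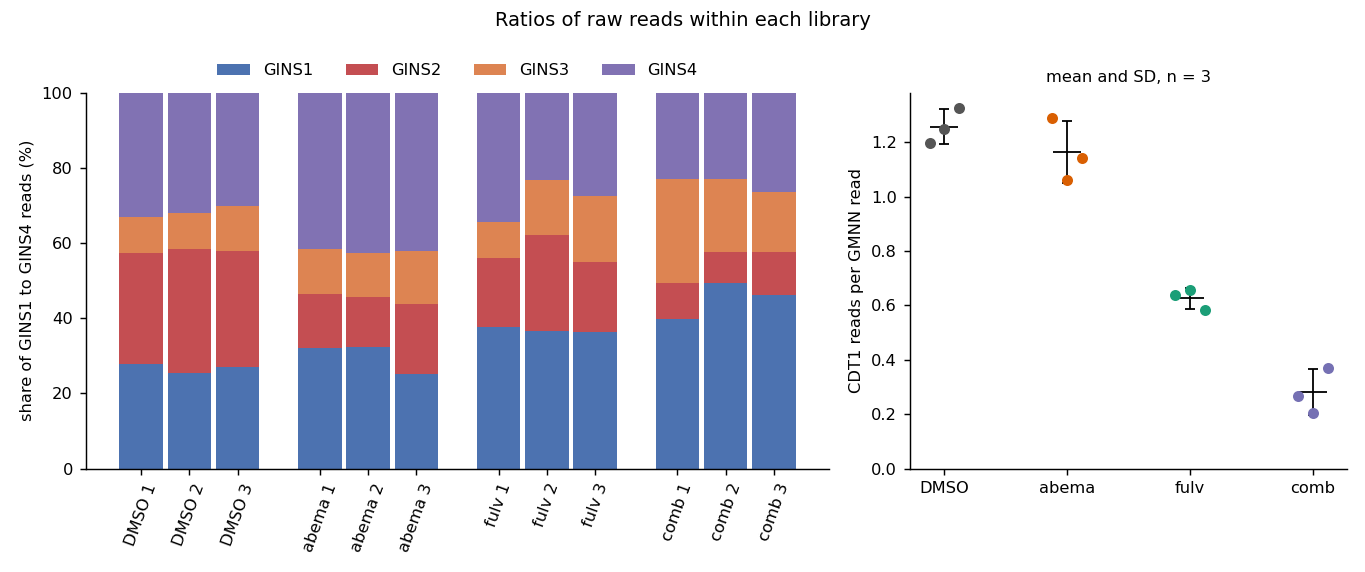
Left, share in percent of each GINS gene among the GINS1 to GINS4 reads of each library, with abema for abemaciclib, fulv for fulvestrant and comb for both drugs. Right, CDT1 reads per GMNN read in each library (points) with the mean and SD of 3; the combination libraries lie lowest, at 0.205 to 0.370.

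The CDC7 kinase and its activator DBF4 differed in level and in the order of the treated groups, and a difference between their responses was not tested. CDC7, the catalytic subunit, had few reads, namely 23, 30 and 24 in DMSO (6.83, 5.70 and 4.96 CPM), 4, 4 and 3 with abemaciclib (0.800, 0.883 and 0.758 CPM), 4, 7 and 8 with fulvestrant (0.988, 1.97 and 1.82 CPM) and 1, 2 and 0 in the combination. CDC7 was the 1 gene of the 10 that was not lower with fulvestrant than with abemaciclib, and its 3 fulvestrant libraries lay above the 3 abemaciclib libraries. Its log2 fold change against DMSO was -2.78 ± 0.43 with abemaciclib (adjusted p = 8.5e-06) and -1.84 ± 0.39 with fulvestrant (adjusted p = 0.00028). CDC7 passed the filter on low counts through its DMSO libraries alone, so its tests against DMSO are not independent of that filter. In pooled reads the combination was 27.0-fold lower than DMSO (95% counting interval 8.88 to 134, adjusted p = 6.4e-08). DBF4, in contrast, stood at 119, 96.2 and 88.1 CPM in DMSO, 34.8, 37.7 and 37.4 with abemaciclib, 20.3, 20.6 and 27.6 with fulvestrant and 18.8, 20.5 and 20.0 in the combination. Fulvestrant replicate 3 was its highest library with fulvestrant, and the other two lay beside the combination libraries. DBF4 changed by -1.46 ± 0.12, -2.13 ± 0.13 and -2.34 ± 0.13 against DMSO on the log2 scale (adjusted p = 2.2e-10, 1.7e-13 and 1.5e-14).

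Pooled over each group, there were 17.3 DBF4 reads per CDC7 read in DMSO (95% counting interval 13.8 to 22.1) and 14.5 with fulvestrant (9.13 to 24.5). The ratio was 44.8 with abemaciclib (24.8 to 90.4) and 93.3 in the combination (31.6 to 455). The intervals of both groups given abemaciclib lay above those of both groups without it, narrowly between abemaciclib and fulvestrant. They cover counting error in pooled reads and not the spread between libraries. By library the ratio was 16.9 to 17.8 in DMSO, 10.4 to 20.5 with fulvestrant and 42.8 to 49.3 with abemaciclib, and it was not tested. The combination value rests on 3 CDC7 reads.

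TICRR had 58, 70 and 82 reads in DMSO (17.2, 13.3 and 16.9 CPM), 20, 22 and 20 with abemaciclib (4.00, 4.86 and 5.05 CPM), 6, 9 and 2 with fulvestrant (1.48, 2.54 and 0.456 CPM) and 0, 1 and 0 in the combination. A single read in 3 libraries was therefore all that remained under both drugs, and the groups did not overlap. TICRR changed by -1.76 ± 0.27 on the log2 scale with abemaciclib (adjusted p = 7.8e-06) and by -3.44 ± 0.35 with fulvestrant (adjusted p = 3.1e-09). In pooled reads the combination was 221-fold lower than DMSO (95% counting interval 39.1 to 8750, adjusted p = 6.1e-12), 65.0-fold lower than abemaciclib (11.2 to 2609, adjusted p = 3.6e-07) and 20.1-fold lower than fulvestrant (3.14 to 839, adjusted p = 0.019). The last exons of TICRR, CDC45, GINS2 and GINS4 overlap a gene on the opposite strand in GENCODE v44 (KIF7, ENSG00000287652, GSE1 and ENSG00000253174). Strand use in counting is not stated, so reads of these pairs cannot be told apart.

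The next comparison asked what the combination added to each drug. Against abemaciclib alone, 9 of the 10 genes were lower in the combination, where 17.7% of the genes tested were, and 8 were lower at least 2-fold, against 5.74%. The smallest fall among the 9 was that of DBF4, at -0.89 ± 0.14 on the log2 scale (adjusted p = 1.5e-05), followed by GINS3 at -1.24 ± 0.25 and GINS1 at -1.37 ± 0.17 (adjusted p = 0.00031 and 2.7e-07). GINS2 and GINS4 were at -2.59 ± 0.25 and -2.75 ± 0.18 on the same scale, and every combination library lay below every abemaciclib library for both. CDC7 did not pass the test (adjusted p = 0.086), and its pooled reads were 3.85-fold lower with a counting interval of 1.02 to 21.5.

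Against fulvestrant alone, 6 of the 10 genes were lower in the combination and each by at least 2-fold, where 1.63% of the genes tested were lower and 1.03% by at least 2-fold. They were CDC6, CDT1, CDC45, GINS2, CDC7 and TICRR. CDC45, CDC7 and TICRR passed the filter through the groups with more reads, and when only the fulvestrant and combination libraries were filtered and fitted, 7 of the 10 genes were tested and 2, CDT1 and GINS2, were lower. In that fit 119 of the 11132 genes tested were lower. Without fulvestrant replicate 3 the genes called lower over the whole table rose from 192 of 11803 to 403 of 12069, and 5 of the 10 genes were among them. GINS2 was lower by 1.58 ± 0.29 on the log2 scale (adjusted p = 0.00095), and the pooled CDC7 reads were 7.48-fold lower (95% counting interval 2.20 to 39.4, adjusted p = 0.041). The 4 that did not pass were GINS4, at -0.78 ± 0.23 (adjusted p = 0.090), GINS1, at -0.24 with a 95% interval of -0.64 to 0.16, DBF4, at -0.21 with an interval of -0.53 to 0.10, and GINS3, at 0.05 with an interval of -0.56 to 0.66 (adjusted p = 0.70, 0.65 and 0.97). For GINS1, DBF4 and GINS3 these intervals leave out a further 2-fold fall.

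Calls against fulvestrant at few reads depended on single libraries. CDC45 was no longer called without any 1 abemaciclib library, without fulvestrant replicate 1 or 2, or without combination replicate 1 or 3 (adjusted p = 0.068 to 0.19). TICRR was lost without fulvestrant replicate 1 or 2 or combination replicate 1 or 3 (adjusted p = 0.0592 to 0.15). CDC7 kept its call only without DMSO replicate 1 or fulvestrant replicate 1 among the 12 libraries left out in turn, and missed the threshold in DESeq2 (adjusted p = 0.12). GINS4 passed without fulvestrant replicate 2, at -0.95 (adjusted p = 0.033). All of these values kept their sign.

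Fulvestrant at 5 nM was then set beside abemaciclib at 100 nM. Of the 10 genes, 9 were lower with fulvestrant, against 15.5% of the genes tested, and 8 were lower at least 2-fold, against 4.73%. GINS4 had the lowest value, at -1.97 ± 0.17 on the log2 scale (adjusted p = 1.1e-09), and DBF4 the smallest fall that passed, at -0.67 ± 0.14 (adjusted p = 0.00060). CDC7 had the opposite sign, at 0.94 with a 95% interval of -0.20 to 2.08, and did not pass (adjusted p = 0.22).

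Whether abemaciclib acted differently in cells also given fulvestrant was tested by the interaction, the log2 change produced by abemaciclib with fulvestrant minus that without it. It was positive and passed the test for 3 of the 10 genes, where 9.49% of the genes tested had such a call, and negative for 0 of the 10, against 11.6% (1 gene, TICRR, at an unadjusted p under 0.05 in edgeR, and 0 in DESeq2). The 3 were DBF4 at 1.24 ± 0.20, GINS3 at 1.22 ± 0.36 and GINS1 at 1.04 ± 0.24 (adjusted p = 3.7e-05, 0.015 and 0.0021). For each of them abemaciclib changed the transcript by -1.46, -1.17 and -1.28 on the log2 scale in cells without fulvestrant and by -0.21, 0.05 and -0.24 in cells given fulvestrant. The GINS3 call was lost without fulvestrant replicate 1 (1.05, adjusted p = 0.055) and without combination replicate 1 (0.97, adjusted p = 0.080).

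CDC6 had an interaction of 0.08 with a 95% interval of -0.85 to 1.00 (adjusted p = 0.93). GINS2, at 0.91 ± 0.35 (adjusted p = 0.065), and CDT1, at 0.75 ± 0.33 (adjusted p = 0.13), leaned to the same side as the 3 called genes without passing. GINS2 passed without abemaciclib replicate 3 (1.02, adjusted p = 0.046). GINS4 was at 0.27 ± 0.27 and CDC45 at -0.89 ± 0.86 (adjusted p = 0.51 and 0.50). TICRR was at -2.11 ± 1.02 (adjusted p = 0.15), a value fitted to a single combination read, and passed without fulvestrant replicate 3 (-2.58, adjusted p = 0.044). CDC7 was at 0.03 (adjusted p = 0.97) on 3 combination reads. The exact E2F heptamers searched were present in GINS1, GINS3, CDC6, CDT1, GINS2 and CDC7 and absent from DBF4, CDC45 and TICRR, with no window for GINS4. Other spellings of such sites were not searched, and a link between promoter sequence and the interaction was not tested.

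**Figure D4:**
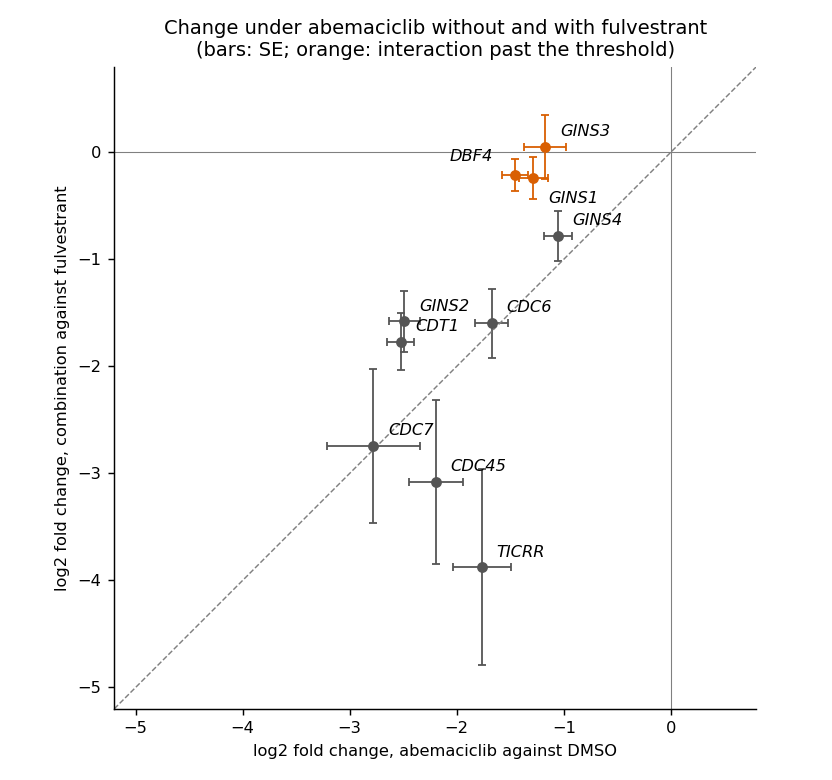
Log2 fold change of each gene under abemaciclib against DMSO (horizontal) and under the combination against fulvestrant (vertical), with SE bars; the dashed line marks equal change. DBF4, GINS3 and GINS1 (orange, interaction adjusted p under 0.05) lie above the line near 0 on the vertical axis, and the low-read genes CDC7, CDC45 and TICRR have the widest bars.

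The rest of the pathway was read from 4 lists. In the list of the MCM ring, MCM10 and the MCM-binding protein MCMBP, 8 of 8 genes fell with abemaciclib, with fulvestrant and in the combination against DMSO, where 20.7%, 25.7% and 27.5% of the genes tested fell, and the median log2 fold change was -1.55, -2.33 and -2.59. MCM10, which helps to activate the ring, had the lowest value, with 381, 555 and 523 reads in DMSO and 0, 1 and 0 in the combination. MCM4 had the highest, at -1.09 ± 0.10 in the combination (adjusted p = 7.0e-10). Against fulvestrant only MCM10 and MCM3 of the 8 were lower in the combination, where 1.63% of the genes tested were. The interaction was positive and called for 6 of the 8, the MCM ring genes, against 9.49% of the genes tested, and negative for MCM10, whose value was fitted to a single combination read.

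Of 9 other firing factors, 8 were tested, and 8 fell in each of the same 3 comparisons, against the same shares of 20.7%, 25.7% and 27.5%. Among them, MTBP would not have passed the filter on low counts without its DMSO libraries, so its place in these counts is not independent of the filter. CLSPN, the checkpoint adaptor claspin, had the lowest value in the combination, at -6.10 ± 0.18, and its mean went from 172 ± 7.63 CPM in DMSO to 2.49 ± 0.784. RECQL4, a helicase required for initiation, had the highest, at -1.05 ± 0.09. TOPBP1, the scaffold that TICRR binds, averaged 82.7 ± 11.2 CPM in DMSO, 45.9 ± 3.55 with abemaciclib, 37.8 ± 5.65 with fulvestrant and 37.8 ± 1.24 in the combination. It therefore remained readily measured where TICRR had 1 read. In this list 1 of 8 genes, CLSPN, was lower in the combination than with fulvestrant, against 1.63% of the genes tested.

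Of 7 origin recognition genes tested, 3 fell with abemaciclib, 3 with fulvestrant and 4 in the combination, where 20.7%, 25.7% and 27.5% of the genes tested fell, and the median in the combination was -0.55. ORC1, which is among those that fell in each comparison, passed the filter on low counts through DMSO alone. Its place in these counts is therefore not independent of the filter. ORC1, the subunit whose level is known to follow the cell cycle, had 27, 48 and 26 reads in DMSO, 7, 9 and 3 with abemaciclib, 2, 1 and 1 with fulvestrant and no read in any combination library. ORC4 gave the highest value, at 0.06 ± 0.16 (adjusted p = 0.77), and averaged 17.5 ± 3.02 CPM in DMSO and 18.0 ± 1.34 in the combination. Between combination and fulvestrant 0 of the 7 passed in edgeR or in DESeq2, and 2 (ORC1 and ORC2) were lower at an unadjusted p under 0.05 in edgeR.

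Among 8 genes that inhibit licensing or turn its factors over, 5 fell in each comparison with DMSO, against 20.7%, 25.7% and 27.5% of the genes tested, and 1 rose with abemaciclib and in the combination. With abemaciclib 4864 of the 11803 genes tested were called in either direction, and 2449 of these were lower. In the combination 6519 were called, and 3246 of these were lower. DTL, the receptor through which a CUL4 ubiquitin ligase recognises CDT1, had the lowest value, with 353, 544 and 486 reads in DMSO and 3, 5 and 0 in the combination. FZR1, an activator of the anaphase-promoting complex, was the gene that rose, from 39.4 ± 7.11 to 52.3 ± 1.09 CPM in the combination (0.39 ± 0.12 on the log2 scale, adjusted p = 0.0078). DTL was the 1 gene of the 8 that was lower in the combination than with fulvestrant (adjusted p = 4.5e-07), where 1.63% of the genes tested were lower, and GMNN, at -0.58 ± 0.20, did not pass (adjusted p = 0.18). The interaction of GMNN was positive, at 1.83 ± 0.25 (adjusted p = 5.3e-06).

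**Figure D5:**
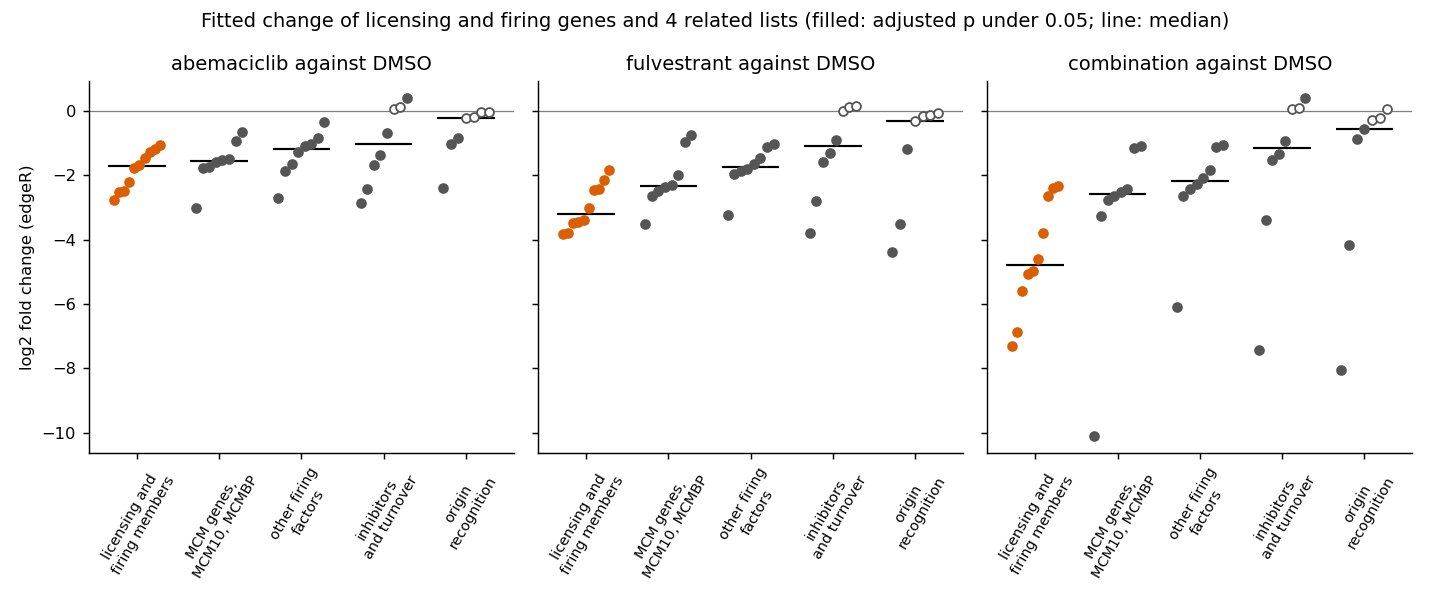
Fitted log2 fold change against DMSO of the 10 licensing and firing genes (orange) and of 4 related lists (grey) in the 3 treatments; filled points passed the test and horizontal lines are medians. In the combination the 10 genes had a median of -4.78, and the lowest points, such as MCM10, ORC1 and TICRR, were fitted to 0 or 1 reads and depend on the prior count.

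The 10 genes were also placed by the shape of their response, as the root mean square difference between centred log2 group means over the 4 treatments. Within the set, GINS1 and GINS3 were the closest pair, at 0.128, followed by CDC6 and TICRR at 0.151, and DBF4 was nearest to GINS1, at 0.182. CDT1 and GINS2 were each other's nearest gene, at 0.202. CDC7 was the most isolated, since its nearest gene in the set, DBF4, lay at 0.600. Among 9870 other genes with a mean of at least 5 CPM, the closest were LIG1 for DBF4, at 0.0439, PNP for GINS1, at 0.0482, TICRR's neighbour CDCA8, at 0.0573, LYAR for GINS3, at 0.0625, and GNG4 for GINS4, at 0.0905. For CDC45, GINS2, CDC6, CDT1 and CDC7 they were KIF2C, ZNF367, DIAPH3, CDCA3 and CCNE2, at 0.120 to 0.175. These distances rest on 4 group means each and describe likeness only. A prior count of 2 was added before taking logs, which sets a floor for libraries without reads. TICRR, CDC45 and CDC7 had 1, 4 and 3 reads in the combination, so their distances depend on that floor.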

How the data were processed

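RNA was measured by QuantSeq 3′ sequencing in 12 CAMA-1 libraries, grouped by their treatment label. The authors trimmed the reads, aligned them to hg38 with STAR and counted them per gene with featureCounts 2.0.1, and deposited raw counts, which were used as they stand. Strand use in counting is not stated in the sources used here. Of 60656 rows, 44 had no gene name and 0 reads and were left out.

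Tests were run with edgeR 4.0.16 and limma 3.58.1 under R 4.3.3. Genes passing filterByExpr (minimum count 10, minimum total 15) were kept, libraries were scaled by TMM, and the 12 libraries entered 1 robust quasi-likelihood model of 4 group means (common biological coefficient of variation 0.0918). P values were adjusted over all 11803 genes by the Benjamini-Hochberg method at a threshold of 0.05, and standard errors were derived from the F statistic. Alternatives included DESeq2 1.42.0, other scalings and filters, left-out libraries, a replicate block and thinning. The pipeline was tested on simulated counts.

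Where a group held under 10 reads of a gene in all, folds come from pooled reads with exact 95% intervals. The text names the 10 genes, and for each related list the lowest and highest value in the combination against DMSO, plus ORC1, GMNN, TOPBP1 and RECQL4, and for each gene the nearest in shape. MCM3, ORC2, MTBP and COL1A1 were named for their values after these were seen. The genes and lists were chosen with earlier results of these data known. Promoters are from RefSeq and positions from GRCh38.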

Additional observations from a re-analysis of the deposited data

Results flagged for a closer look

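In 3 of the 10 genes the response to abemaciclib differed with and without fulvestrant by the interaction test itself (edgeR quasi-likelihood test, adjusted over all genes tested). All 3 interactions were positive. Of the genes tested, 9.49% had a positive call and 11.6% a negative one. For DBF4 the difference was 1.24 on the log2 scale, from -1.46 without fulvestrant to -0.21 with it (adjusted p = 3.7e-05). For GINS3 it was 1.22, from -1.17 to 0.05 (adjusted p = 0.015), and for GINS1 it was 1.04, from -1.28 to -0.24 (adjusted p = 0.0021). The fulvestrant and combination libraries of these 3 genes overlapped, but the same libraries enter the interaction, so the overlap is no separate support.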

How the results depend on the processing

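Over 21 alternatives and 70 results on single genes, 1372 of 1413 values kept their direction and side of the threshold, 27 lost their call, 3 gained one and 11 changed sign. With at least 10 counts required in every library, 4 of the 10 genes were tested (GINS1, GINS3, GINS4 and DBF4), and 4 were lower in each of the comparisons with DMSO, with abemaciclib for the combination and with abemaciclib for fulvestrant, but 0 against fulvestrant for the combination (1, GINS4, at an unadjusted p under 0.05 in edgeR). Of the 9748 genes tested in that setting, 2063, 2561 and 2724 were lower against DMSO with abemaciclib, with fulvestrant and in the combination. Against abemaciclib 1722 were lower in the combination and 1510 with fulvestrant, and against fulvestrant 74 were lower in the combination. That filter removes the 6 genes called lower through their few reads in the combination, so the 0 follows from the filter. Fitting only the groups compared left 7 tested and 2 lower against fulvestrant, and leaving out libraries in turn gave 3 to 6, where 6 were lower with all libraries and 5 in DESeq2. GINS3 in the combination against fulvestrant was at -0.0045 after thinning to the smallest total and -0.20 to 0.29 without single libraries. The CDC6 interaction was -0.20 to 0.41 without single libraries, and that of CDC7 was -0.073 in DESeq2 and -0.80 to 0.61 without single libraries. The cause was not tested.

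Replicate numbers did not pair the libraries: deviations of same-numbered libraries correlated at -0.215 to 0.119, with 2 of 18 pairs over 0.1. With a replicate block, 5 genes were lower in the combination than with fulvestrant, CDC7 being at adjusted p = 0.0589 (edgeR). Depth limits CDC45, CDC7 and TICRR, which had 4, 3 and 1 reads over the 3 combination libraries.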
